A study of Homo sapiens with 60 samples.

Results

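The 10 genes described here make up a core set of the unfolded protein response of the endoplasmic reticulum (ER): HSPA5, HSP90B1, CALR, PDIA4, PDIA6, HYOU1, DNAJB9, SDF2L1, HERPUD1 and XBP1. They were taken as a list of symbols and not by a rule on measured values, but the list was chosen with earlier results of these data known. Each symbol matched 1 Ensembl identifier among the 60675 in the deposited count table. All 10 passed the filter on low counts and were among the 16982 genes tested. Most encode folding factors of the ER lumen or their partners, whereas HERPUD1 belongs to ER-associated degradation and XBP1 is a transcription factor, so the list is wider than chaperones alone.

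The study profiled HepG2, a human hepatocellular carcinoma line that still makes many liver plasma proteins, by RNA sequencing after 24 h with an ethanol extract of a single herb or of a multi-herb decoction. The single herbs were Polygalae Radix (250, 50 and 10 µg/mL), Aucklandiae Radix (280, 56 and 11.2 µg/mL), Menthae Herba and Saposhnikoviae Radix (both 500, 100 and 20 µg/mL). The decoctions were Guibi-tang, Saengmaek-san, Okbyeongpung-san and Soyo-san, all at 500, 100 and 20 µg/mL. Vehicle cells received 0.1% DMSO by the sample labels; the series' design text gives another percentage. There were 3 libraries in the vehicle group and at each dose of Guibi-tang, Saengmaek-san, Menthae Herba and Saposhnikoviae Radix, 2 at each dose of Polygalae Radix, Aucklandiae Radix and Soyo-san, and 1 at each dose of Okbyeongpung-san. By the series' design text, a top dose under 500 µg/mL is the concentration that inhibits by 20%, so the high doses of Polygalae Radix and Aucklandiae Radix were chosen at an inhibitory level. All groups are one cell line, and the labels do not say whether the libraries of a group came from separate cultures; the p-values therefore reflect library-to-library spread alone, and that spread could be technical.

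In the annotation that matched most identifiers (GENCODE 29, GRCh38), HSPA5 spans chr9:125234853-125241330, HSP90B1 chr12:103930107-103953645, CALR chr19:12938578-12944489, PDIA4 chr7:149003062-149028641 and PDIA6 chr2:10783391-10837977. HYOU1 spans chr11:119044189-119057202, DNAJB9 chr7:108569568-108574850, SDF2L1 chr22:21642261-21644298, HERPUD1 chr16:56932048-56944863 and XBP1 chr22:28794555-28800597. Values are for whole genes, the sum over their exons. HSP90B1, CALR, PDIA6, HYOU1, DNAJB9 and HERPUD1 overlap another annotated gene, whose level matters below for DNAJB9.

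The unfolded protein response raises the folding capacity of the ER when unfolded proteins build up there. In the textbook scheme, BiP (the product of HSPA5) holds the sensors IRE1, PERK and ATF6 inactive and leaves them when it binds unfolded chains. IRE1 then cuts XBP1 mRNA so that a splice yields the active factor XBP1s, ATF6 is cut to an active fragment, and PERK slows translation and favours ATF4. ATF6 and XBP1s act at ER stress response elements in the promoters of chaperone genes. Hepatocytes depend on this machinery because they secrete plasma proteins in bulk.

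Sequences close to the transcription start were searched for elements of this response. Such elements are known from promoters of ER chaperone genes, so matches in the list are not independent of how its genes were chosen. Windows of 300 bases, from 250 before to 50 after the start (RefSeq, GRCh38.p14), were present for all 10 genes, 13 windows in all. They were searched on both strands for the ER stress response element (ERSE, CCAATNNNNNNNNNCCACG) and its second form (ERSE-II: ATTGG, any base, then CCACG). ERSE was found in HSPA5, HSP90B1 (2 matches), CALR, PDIA6 and XBP1, against 0.0769% of all 35116 windows. ERSE-II was found in HYOU1 (2 matches), SDF2L1 and HERPUD1, against 0.0541% of all windows. PDIA4 and DNAJB9 had neither motif in their windows. In all, 8 of the 10 genes held an ERSE or ERSE-II match in at least 1 window, which describes the sequence and shows no binding. PDIA6 and XBP1 each had 2 windows and held the match in 1 of them. The shares of all windows are per window and per motif, so the count of genes is not on their scale.

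The 250 bases before the start are given for 4 genes, chosen because their mRNAs behaved in different ways below: HSPA5 and XBP1, which both hold an ERSE and moved in opposite directions, CALR, which holds an ERSE and fell with each of the 4 extracts that changed genes of the list, and HERPUD1, which holds the ERSE-II form. Capitals mark the motif match, and each sequence runs 5′ to 3′ on the strand of its gene. HSPA5 lies at chr9:125241344-125241593 on the minus strand, CALR at chr19:12938359-12938608 on the plus strand, HERPUD1 at chr16:56931892-56932141 on the plus strand and XBP1 at chr22:28800570-28800819 on the minus strand.
HSPA5: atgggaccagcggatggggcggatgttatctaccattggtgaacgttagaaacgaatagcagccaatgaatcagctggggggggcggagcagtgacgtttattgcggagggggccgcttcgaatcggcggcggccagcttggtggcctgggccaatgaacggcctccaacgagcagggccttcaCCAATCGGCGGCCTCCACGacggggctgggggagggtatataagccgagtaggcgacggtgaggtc
CALR: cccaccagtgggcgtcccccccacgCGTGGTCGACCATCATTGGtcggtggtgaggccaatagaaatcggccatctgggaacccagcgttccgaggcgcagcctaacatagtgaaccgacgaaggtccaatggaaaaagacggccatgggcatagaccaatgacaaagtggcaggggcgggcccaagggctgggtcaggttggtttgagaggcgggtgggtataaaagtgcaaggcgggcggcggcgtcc
HERPUD1: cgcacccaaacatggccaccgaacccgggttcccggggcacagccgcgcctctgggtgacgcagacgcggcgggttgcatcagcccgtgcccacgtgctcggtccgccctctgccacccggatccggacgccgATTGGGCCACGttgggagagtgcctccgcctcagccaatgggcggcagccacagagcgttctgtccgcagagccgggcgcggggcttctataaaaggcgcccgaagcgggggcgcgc
XBP1: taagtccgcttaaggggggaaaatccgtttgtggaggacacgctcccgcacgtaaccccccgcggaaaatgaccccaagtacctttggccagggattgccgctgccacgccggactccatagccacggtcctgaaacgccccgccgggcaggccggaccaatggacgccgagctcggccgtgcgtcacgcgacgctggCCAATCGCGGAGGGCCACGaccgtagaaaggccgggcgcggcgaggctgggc
The ERSE of HSPA5 ends 48 bases before the start and that of XBP1 ends 34 bases before it, whereas the CALR match lies farther out, 225 to 207 bases before the start and on the opposite strand. The ERSE-II of HERPUD1 lies 117 to 107 bases before the start.

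Libraries held 17518496 to 38905920 counts (median 23674023). The 9 hepatocyte and HepG2 markers all had a median of at least 1 CPM (counts scaled to a common library total, after TMM scaling), and their summed level was 16369 to 53004. Markers of blood cells summed to at most 0.899 (HBB at 0 throughout), of stroma to at most 16.9 (DCN at 0) and of endothelium to at most 6.35. Levels below are in CPM, and TMM is a scaling that sets the typical gene equal between libraries. They are shares of a library, so a change in RNA per cell or in cell number is not seen. The share of counts from mitochondrial genes was 15.8 to 19.1% in vehicle, 17.5 to 17.7% at the high dose of Polygalae Radix, 8.02 to 8.17% at that of Aucklandiae Radix and 10.1 to 14.9% in the other groups; its part in the results was not tested.

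In vehicle cells the 10 genes together took 5744 ± 38.0 CPM (SD, n = 3), 0.574% of the scaled counts. Per kilobase of exon, the mean vehicle level was highest for CALR, a calcium-binding lectin chaperone, at 559 CPM per kilobase. HSPA5 (325.3) and HSP90B1 (216.4) came next on that scale, then PDIA4 (168.4), PDIA6 (131.5) and XBP1 (108.4). HYOU1 (52.1), SDF2L1 (18.7), HERPUD1 (16.3) and DNAJB9 (5.1) followed. Lengths are of all exons in the annotation, which several transcripts share, so this order between genes is approximate.

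**Figure D1:**
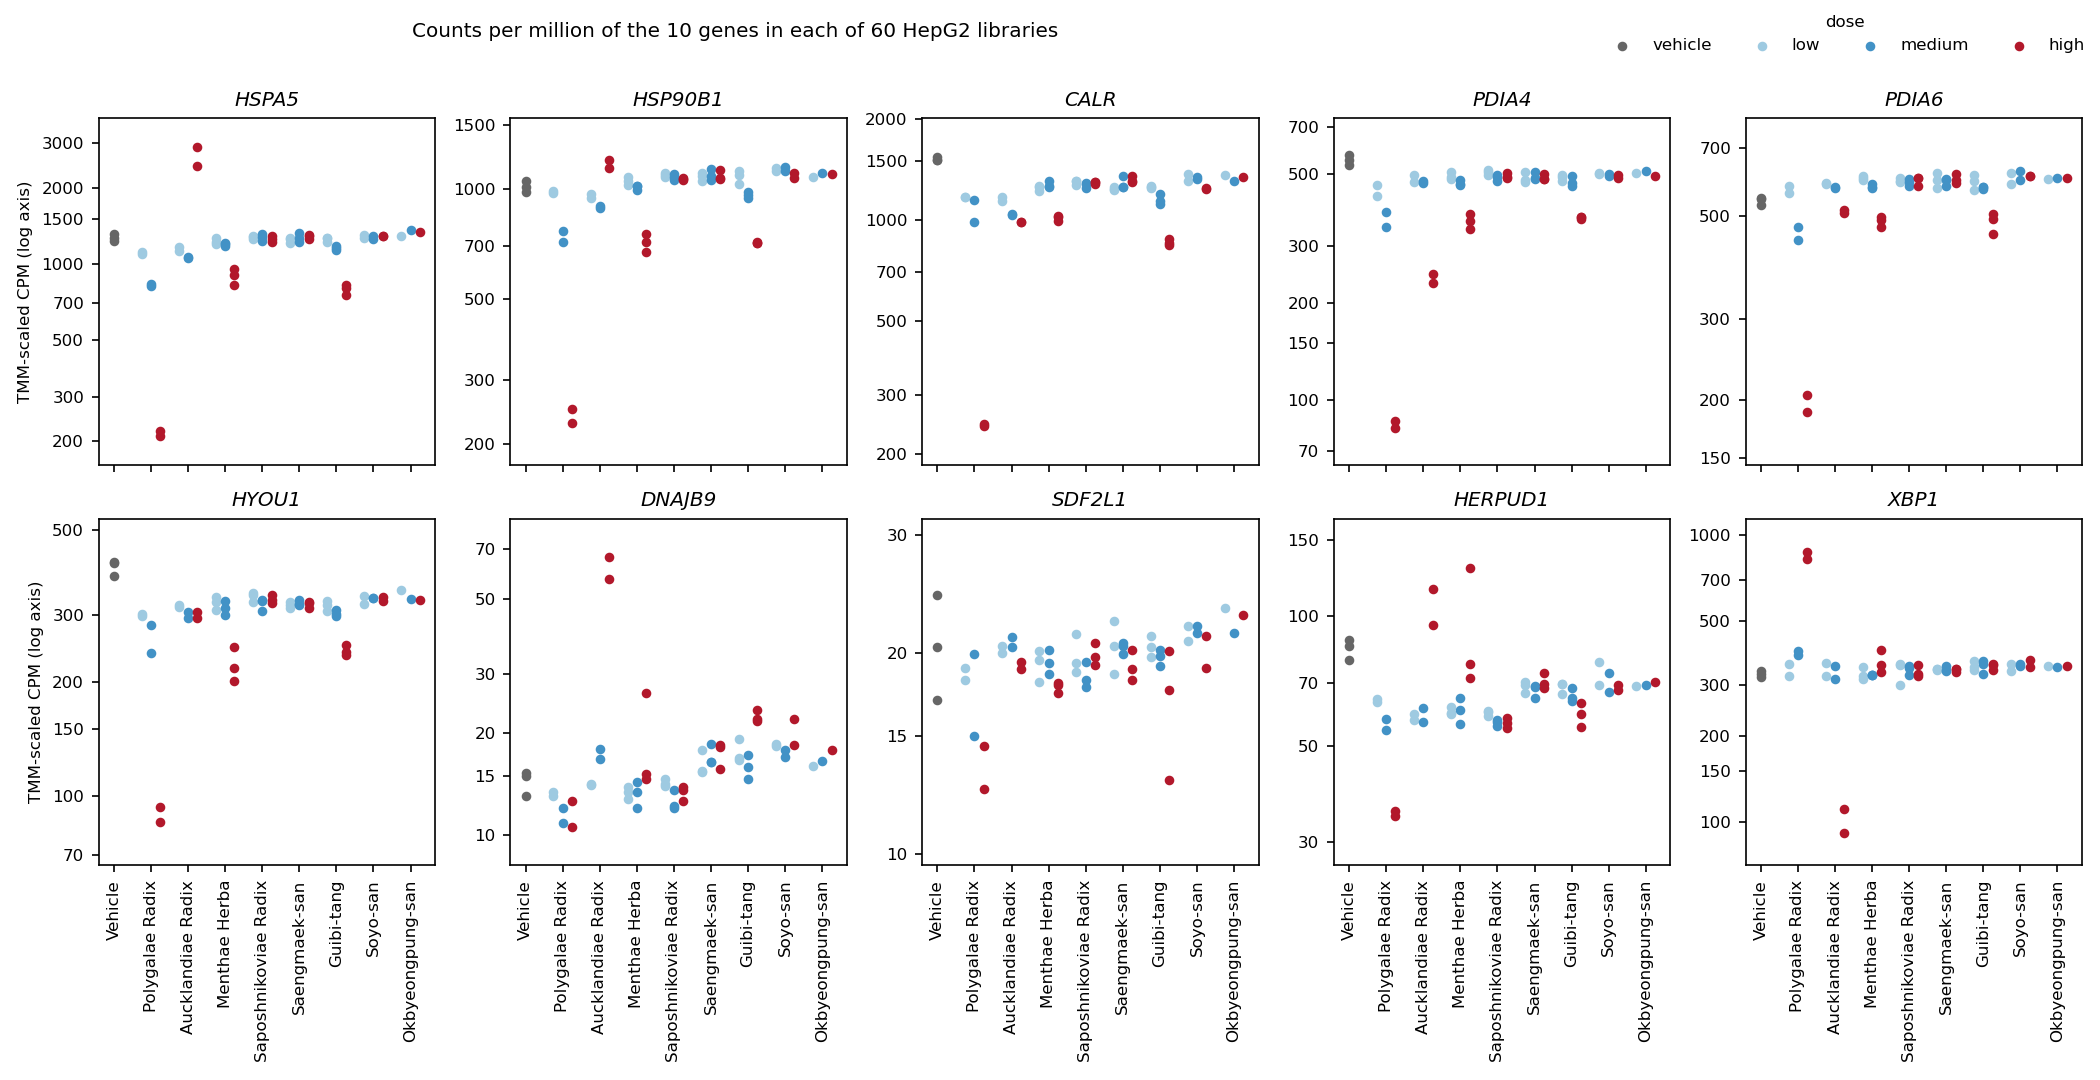
TMM-scaled CPM (log axis, each panel with its own range) of the 10 genes in each of 60 libraries, by extract; grey points are vehicle, pale blue low, mid blue medium and red high dose. The high doses of Polygalae Radix and Aucklandiae Radix stand farthest from the rest: HSPA5 is at 210.5 and 219.0 in the first and 2889 and 2434 in the second, against 1239 to 1311 in vehicle.

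The high dose of each extract was compared with its low dose, because the vehicle libraries carry a sample set label of their own and every extract's doses share one. Genes of the list were called with 4 of the 7 extracts tested. A gene was called when edgeR's quasi-likelihood test gave a Benjamini-Hochberg adjusted p under 0.05 over all tested genes. With Polygalae Radix, 8 of the 10 genes fell and 1 rose, where 33.0% of all tested genes fell and 31.1% rose. With Aucklandiae Radix, 4 rose and 4 fell, against 33.9% of all genes higher and 35.5% lower, so the members' count there is close to the background. With Menthae Herba, 6 fell and 2 rose, against 12.5% lower and 10.8% higher. With Guibi-tang, 7 fell and 1 rose, against 17.5% lower and 16.8% higher.

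The other 3 extracts had 0 genes of the 10 called by edgeR or DESeq2. At an unadjusted p under 0.05 the count was 0 for Saposhnikoviae Radix, 1 for Saengmaek-san and 1 for Soyo-san. Background there was 0.389% higher and 0.442% lower for Saposhnikoviae Radix, 0.206% and 0.230% for Saengmaek-san, and 2.13% and 1.83% for Soyo-san. Every estimate lay between -0.12 and 0.12 on the log2 scale in these 3 extracts. In the 8 high-dose libraries concerned, HSPA5 ranged only from 1225 to 1302 CPM. The SEs of the estimates were 0.03 to 0.15, which limits what could be detected.

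The median log2 change of the 10 genes was -1.65 with Polygalae Radix, -0.08 with Aucklandiae Radix, -0.31 with Menthae Herba and -0.35 with Guibi-tang, and that of all tested genes was between -0.02 and 0.00. The median for Aucklandiae Radix hides changes in both directions, which the paragraphs by role take apart. The summed level fell from 5009 ± 58.6 to 1979 ± 15.7 CPM between the low and high dose of Polygalae Radix (SD, n = 2 each). For Aucklandiae Radix the sums were 5078 ± 20.0 and 6155 ± 356.9 CPM (SD, n = 2 each). For Menthae Herba they were 5365 ± 92.2 and 4176 ± 221.6 CPM, and for Guibi-tang 5435 ± 85.7 and 3906 ± 79.4 CPM (SD, n = 3 each). No test was made on the sums.

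**Figure D2:**
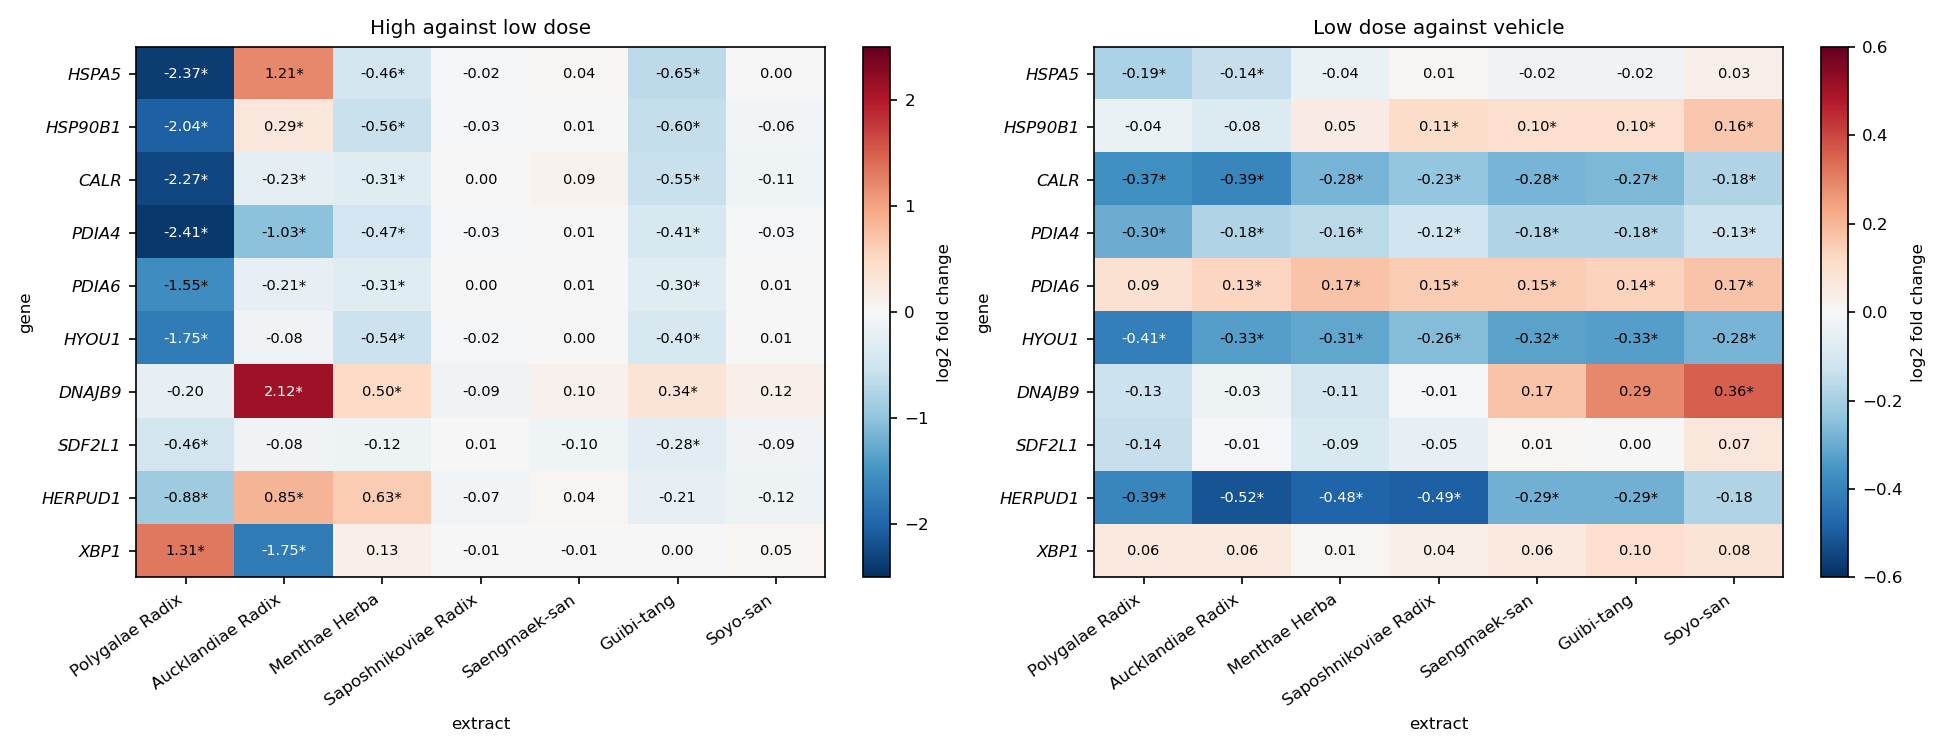
Log2 fold change of each gene by extract, high against low dose (left, colour scale to ±2.5) and low dose against vehicle (right, to ±0.6); an asterisk marks an adjusted p under 0.05 in edgeR. HSPA5 changed by -2.37 with Polygalae Radix and by 1.21 with Aucklandiae Radix, and XBP1 by 1.31 and -1.75.

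HSPA5 encodes BiP, the HSP70-type chaperone of the ER that also restrains the stress sensors. At the low dose of Polygalae Radix its libraries held 1113 and 1100 CPM, and at the high dose 210.5 and 219.0 CPM. With Aucklandiae Radix they held 1126 and 1167 CPM at the low dose and 2889 and 2434 CPM at the high dose. The groups of neither extract overlapped, and the moves were opposite. HSPA5 fell by 2.37 on the log2 scale with Polygalae Radix (SE 0.06, 5.18-fold lower, adjusted p = 8.7e-35), and rose by 1.21 with Aucklandiae Radix (SE 0.05, 2.31-fold, adjusted p = 1.2e-24).

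With Menthae Herba, HSPA5 was at 1268, 1218 and 1204 CPM at the low dose and 954.8, 904.8 and 828.4 CPM at the high dose. Guibi-tang gave 1263, 1221 and 1267 CPM at the low dose and 808.5, 755.5 and 827.3 CPM at the high dose. Every high-dose library was below every low-dose library in both. The log2 change was -0.46 (SE 0.04) with Menthae Herba and -0.65 (SE 0.04) with Guibi-tang. Among all 60 libraries HSPA5 spanned 13.7-fold, the widest of the 10 genes, but only 1.66-fold in the 50 libraries outside the high doses of these 4 extracts.

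HSP90B1 encodes GRP94, the HSP90 of the ER. Its Polygalae Radix libraries went from 977.4 and 986.7 CPM at the low dose to 228.6 and 250.0 CPM at the high dose, a fall by 2.04 on the log2 scale (SE 0.05). Aucklandiae Radix libraries held 967.4 and 945.4 CPM at the low dose and 1201 and 1143 CPM at the high dose, a rise of only 0.29 (SE 0.04, 1.22-fold). Both HSPA5 and HSP90B1 thus rose with Aucklandiae Radix, HSPA5 more than HSP90B1. With Menthae Herba HSP90B1 fell by 0.56 (SE 0.04) and with Guibi-tang by 0.60 (SE 0.04).

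HYOU1 encodes GRP170, a large HSP70-like protein that exchanges nucleotide on BiP. It fell from 301.9 and 298.1 to 94.0 and 85.7 CPM with Polygalae Radix, a log2 change of -1.75 (SE 0.06). At the high dose of Aucklandiae Radix the 2 libraries held 295.1 and 306.0 CPM against 318.2 and 315.2 CPM at the low dose, a log2 change of -0.08 (SE 0.06, adjusted p = 0.24). The mRNA of BiP rose with Aucklandiae Radix and that of its exchange factor did not pass the test. HYOU1 fell by 0.54 (SE 0.05) with Menthae Herba and by 0.40 (SE 0.05) with Guibi-tang.

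CALR encodes calreticulin, which holds newly made glycoproteins through their sugar chains. The Polygalae Radix libraries dropped from 1166 and 1171 CPM to 246.4 and 241.8 CPM, and CALR fell by 2.27 on the log2 scale (SE 0.04). With Aucklandiae Radix the values were 1169 and 1136 CPM at the low dose and 984.3 and 985.0 CPM at the high dose, a fall by 0.23 (SE 0.04, adjusted p = 4e-06). CALR fell by 0.31 (SE 0.03) with Menthae Herba and by 0.55 (SE 0.03) with Guibi-tang, so it was called lower in 4 of 7 extracts and higher in 0.

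PDIA4 and PDIA6 encode protein disulfide isomerases, which form and rearrange disulfide bonds. PDIA4 fell in the Polygalae Radix libraries from 428.4 and 461.4 CPM to 86.3 and 82.3 CPM, by 2.41 on the log2 scale (SE 0.05). With Aucklandiae Radix it fell from 472.6 and 496.6 CPM to 230.0 and 244.9 CPM, by 1.03 (SE 0.05, 2.05-fold lower, adjusted p = 2.4e-23). PDIA4 was thus lower in both, and it fell in the same libraries in which HSPA5 rose. PDIA6 moved less: it fell by 1.55 (SE 0.04) with Polygalae Radix and by 0.21 (SE 0.04) with Aucklandiae Radix. With Menthae Herba PDIA4 fell by 0.47 and PDIA6 by 0.31, and with Guibi-tang PDIA4 fell by 0.41 and PDIA6 by 0.30 (SE 0.03 or 0.04 each).

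DNAJB9 encodes ERdj4, an HSP40 co-chaperone that helps BiP restrain IRE1 and is a classical XBP1s target. In Aucklandiae Radix libraries it went from 14.1 and 14.2 CPM at the low dose to 66.2 and 57.2 CPM at the high dose, a rise of 2.12 on the log2 scale (SE 0.14, 4.34-fold, adjusted p = 1.4e-18). No other library of the 60 exceeded 26.4 CPM. DNAJB9 overlaps PNPLA8 and THAP5 in the annotation. PNPLA8 also rose between those doses, from 11.7 ± 0.784 to 48.5 ± 7.16 CPM (SD, n = 2 each), by 2.05 on the log2 scale (SE 0.10), and THAP5 rose by 0.64 (SE 0.12). The library kit keeps the strand, but the sources used here do not give the strand setting of the counting, so reads of these overlapping genes cannot be told apart with certainty.

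The other extracts changed DNAJB9 less. In Polygalae Radix libraries it was at 13.4 and 13.1 CPM at the low dose and 10.6 and 12.6 CPM at the high dose, which did not pass the test (log2 change -0.20, SE 0.16, adjusted p = 0.27). With Menthae Herba it was at 13.9, 13.4 and 12.8 CPM and then at 26.4, 15.2 and 14.7 CPM, a rise of 0.50 (SE 0.12) that rests on the first high-dose library. Without that library the log2 change was 0.16 (SE 0.09, adjusted p = 0.25). With Guibi-tang the libraries held 16.9, 16.7 and 19.2 CPM and then 22, 21.7 and 23.5 CPM, a rise of 0.34 (SE 0.12, adjusted p = 0.017). That call was lost, at log2 changes of 0.31, without low-dose replicate 1 or 2 or high-dose replicate 3.

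SDF2L1 encodes a small ER protein that works with ERdj co-chaperones. It was the least variable gene, spanning 1.95-fold over the 60 libraries. With Polygalae Radix it fell from 19.0 and 18.2 CPM to 14.5 and 12.5 CPM, by 0.46 on the log2 scale (SE 0.12, adjusted p = 0.00092). With Aucklandiae Radix it was at 20.5 and 20.0 CPM and then at 19.4 and 18.9 CPM (log2 change -0.08, SE 0.12, adjusted p = 0.53). With Guibi-tang the low-dose libraries held 20.4, 19.7 and 21.2 CPM and the high-dose libraries 17.6, 12.9 and 20.1 CPM. That fall by 0.28 (SE 0.10, adjusted p = 0.022) was -0.12 (adjusted p = 0.38) without high-dose replicate 2 and -0.25 (adjusted p = 0.082) without low-dose replicate 3.

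HERPUD1 encodes an ER membrane protein that gathers the machinery for degrading misfolded proteins. It fell with Polygalae Radix from 63.3 and 64.1 CPM to 34.4 and 35.3 CPM, by 0.88 on the log2 scale (SE 0.13, adjusted p = 1.1e-07). It rose with Aucklandiae Radix from 57.3 and 59.3 CPM to 115.6 and 95.3 CPM, by 0.85 (SE 0.12, adjusted p = 5e-08). HERPUD1 thus moved like HSPA5 in these 2 extracts. With Menthae Herba, where HSPA5 fell, HERPUD1 rose: low-dose libraries held 61.5, 59.1 and 59.5 CPM and high-dose libraries 129.0, 77.4 and 71.9 CPM. The log2 change was 0.63 (SE 0.10, adjusted p = 3.2e-06), and 0.32 (SE 0.06, adjusted p = 0.00014) without high-dose replicate 1, the library at 129.0 CPM. With Guibi-tang the low-dose libraries held 66, 69.6 and 69.6 CPM and the high-dose libraries 59.3, 55.2 and 62.8 CPM, with no overlap. The log2 change of -0.21 (SE 0.10, adjusted p = 0.11) did not pass, but it passed with no filter (-0.22, adjusted p = 0.00088) and with only the groups compared (-0.21, adjusted p = 0.019).

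XBP1 encodes the transcription factor that IRE1 activates by splicing its mRNA. Counts per gene do not separate the spliced from the unspliced form, so only total XBP1 mRNA is described. At the low dose of Polygalae Radix it was at 323.6 and 356.7 CPM and at the high dose at 876.6 and 824.3 CPM. It was at 359.4 and 322.3 CPM and then at 91.8 and 110.9 CPM with Aucklandiae Radix. These are the highest and the lowest XBP1 levels of the 60 libraries, and the other 56 lay between 299.0 and 397.3 CPM. XBP1 rose by 1.31 on the log2 scale with Polygalae Radix (SE 0.07, 2.49-fold, adjusted p = 8.4e-21) and fell by 1.75 with Aucklandiae Radix (SE 0.08, 3.37-fold lower, adjusted p = 8.3e-25).

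XBP1 and HSPA5 therefore moved against each other in both extracts. The ratio of XBP1 to HSPA5 CPM was 0.245 to 0.267 in the vehicle libraries. It was 3.76 and 4.16 at the high dose of Polygalae Radix and 0.0455 and 0.0318 at the high dose of Aucklandiae Radix. With Menthae Herba and Guibi-tang XBP1 did not pass the test (log2 changes 0.13 and 0.00, SE 0.06 each), and the ratio was 0.369 to 0.426 and 0.427 to 0.449 at their high doses. The Menthae Herba value passed in 3 alternatives, at 0.15 to 0.19.

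**Figure D3:**
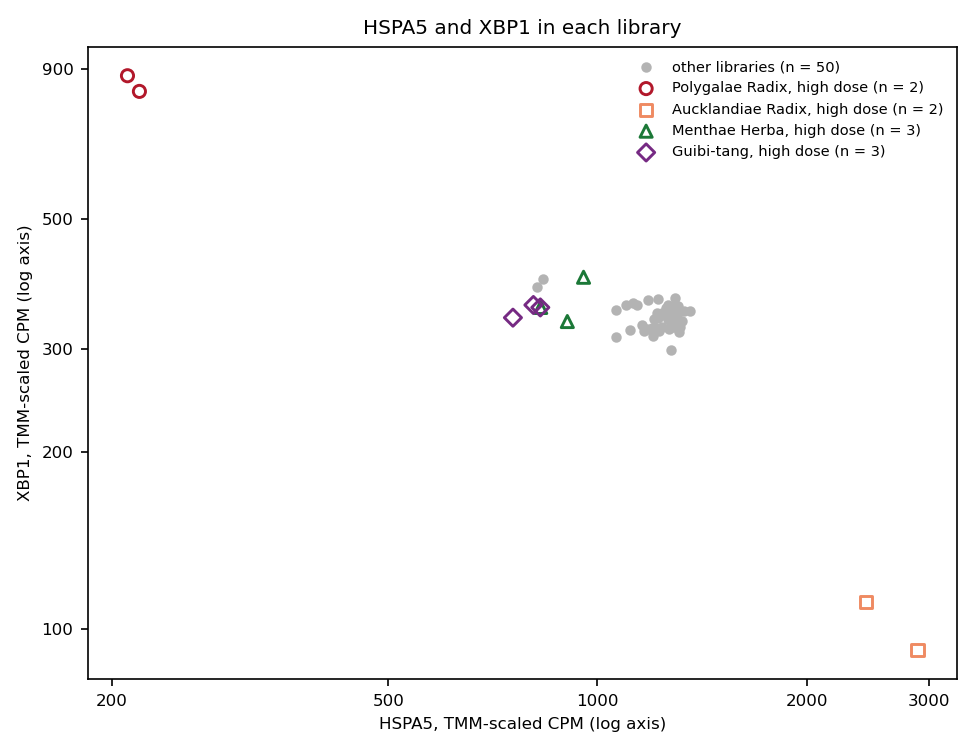
HSPA5 against XBP1 in TMM-scaled CPM (log axes), 1 point per library; coloured symbols are the high doses of 4 extracts and grey points the other 50 libraries. The 2 high-dose Polygalae Radix libraries sit at low HSPA5 and high XBP1 (824.3 and 876.6), and the 2 of Aucklandiae Radix at high HSPA5 and low XBP1 (91.8 and 110.9).

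Whether extracts of one sample set differ in their dose response was tested directly, as the difference of 2 high-against-low changes. For Aucklandiae Radix minus Polygalae Radix, 8 genes were higher and 1 lower, against 31.4% of all genes higher and 28.7% lower. The difference was 3.58 for HSPA5 (SE 0.08), 2.33 for HSP90B1 (SE 0.06), 2.32 for DNAJB9 (SE 0.21), 1.73 for HERPUD1 (SE 0.18) and -3.07 for XBP1 (SE 0.10). SDF2L1 missed the threshold at 0.38 (SE 0.17, adjusted p = 0.051), and passed it in 8 alternatives at 0.34 to 0.77. PDIA4, which fell in both extracts, still differed by 1.37 (SE 0.07).

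For Menthae Herba minus Saposhnikoviae Radix, 6 genes were lower and 2 higher, against 6.28% of all genes lower and 4.34% higher. The largest were HERPUD1 at 0.70 (SE 0.15) and DNAJB9 at 0.59 (SE 0.18) on the higher side, and HSP90B1 and HYOU1 at -0.53 each on the lower side (SE 0.05 and 0.07). Without high-dose Menthae Herba replicate 1 the DNAJB9 difference was 0.26 (adjusted p = 0.24). For Guibi-tang minus Saengmaek-san, 6 genes were lower and 0 higher, against 10.2% lower and 9.40% higher. The 6 were HSPA5, HSP90B1, CALR, PDIA4, PDIA6 and HYOU1, at -0.70 to -0.30.

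At the medium dose fewer genes were called. Polygalae Radix had the most, with 6 genes lower at 50 µg/mL and 0 higher, against 8.41% of all genes called in either direction. HSPA5 was at 818.4 and 834.4 CPM there, and fell by 0.42 on the log2 scale (SE 0.05). HSP90B1 fell by 0.41, PDIA6 by 0.32, PDIA4 by 0.30, HYOU1 by 0.21 and CALR by 0.14, while XBP1 at 0.19 (SE 0.07, adjusted p = 0.096) did not pass. Fitting only the groups compared called 0 of these, and 20 genes in place of 1429 over the whole table.

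In Aucklandiae Radix at 56 µg/mL only CALR was called (-0.15, SE 0.04, adjusted p = 0.020), against 4.35% of all genes, and it was lost whichever of the 4 libraries was left out. HSPA5 there was at 1062 and 1065 CPM, a log2 change of -0.11 (SE 0.05, adjusted p = 0.29), on the other side of 0 from its change at the high dose. In Guibi-tang at 100 µg/mL HSP90B1 fell by 0.17 and CALR by 0.13 (SE 0.04 and 0.03), against 3.60% of all genes, with 0 to 2 called when 1 library was left out. The medium doses of the other extracts, Menthae Herba, Saposhnikoviae Radix, Saengmaek-san and Soyo-san, had 0 genes of the 10 called by edgeR or DESeq2, and 0 at an unadjusted p under 0.05. The background was 0.118%, 0.0118%, 0.00% and 0.00589% in that order.

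**Figure D4:**
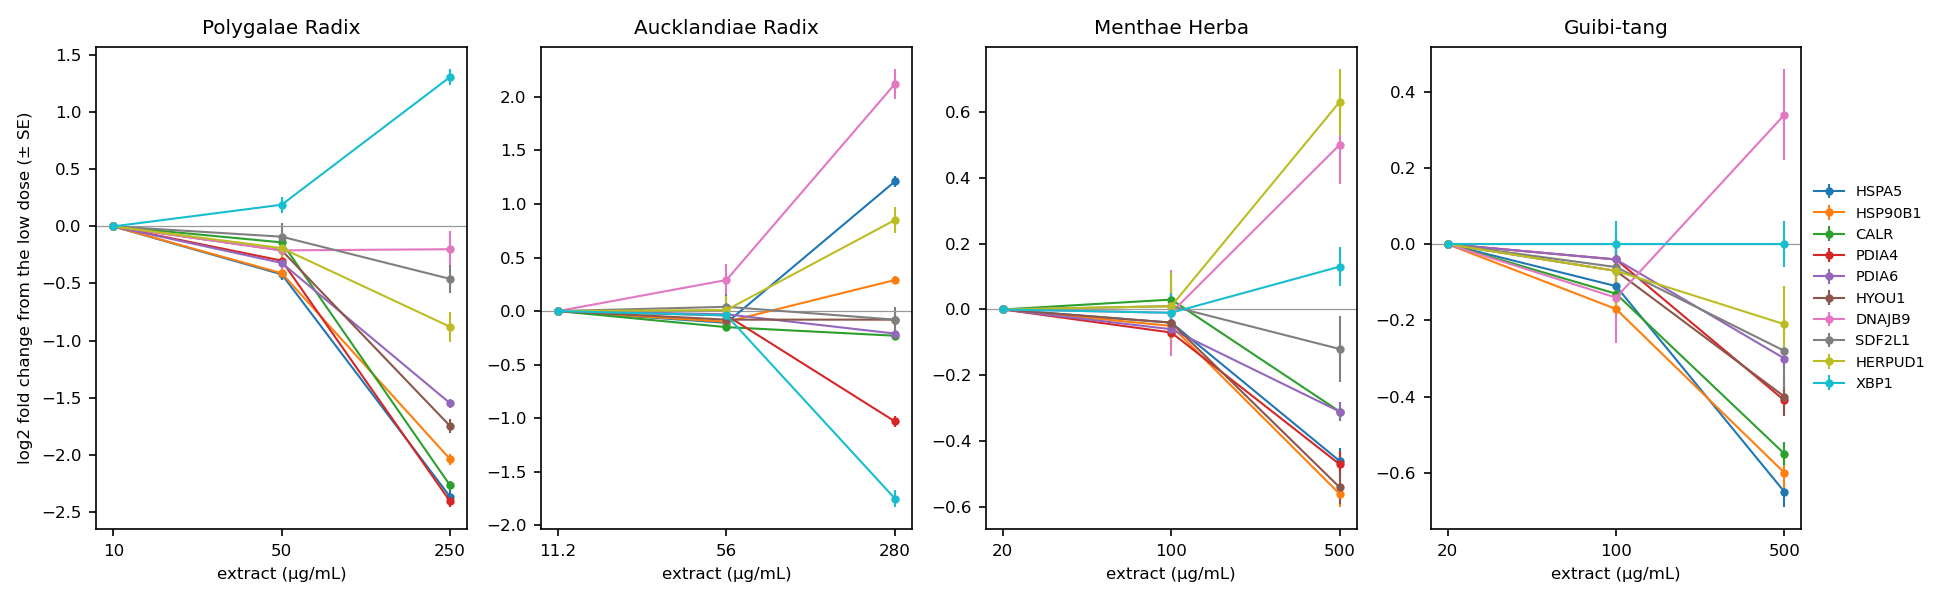
Log2 fold change from the low dose (± SE of the edgeR fit) at the medium and high dose, in 4 extracts; each line is a gene, doses are in µg/mL at equal spacing, and each panel has its own vertical range. Between 50 and 250 µg/mL of Polygalae Radix HSPA5 goes from -0.42 to -2.37, and between 56 and 280 µg/mL of Aucklandiae Radix DNAJB9 goes from 0.29 to 2.12.

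Against vehicle, sample set and treatment cannot be told apart, and some genes differed from vehicle already at every low dose. CALR, PDIA4 and HYOU1 were lower in all 7 extracts at the low dose, by 0.18 to 0.39, 0.12 to 0.30 and 0.26 to 0.41 on the log2 scale. HERPUD1 was lower in 6 of 7 and PDIA6 higher in 6 of 7. CALR ranged from 1501 to 1541 CPM in vehicle and from 1136 to 1363 CPM in the 19 low-dose libraries, with no overlap. XBP1 and SDF2L1 were called in 0 of 7, HSPA5 was lower in 2, HSP90B1 higher in 4 and DNAJB9 higher in 1. Transcript GC was 55.4% for CALR, 53.5% for PDIA4 and 55.2% for HYOU1, against 46.2% for PDIA6 and 42.4% for HSP90B1. With a GC trend removed, high-dose PDIA4 lost its call against vehicle with Saposhnikoviae Radix (-0.07), Saengmaek-san (-0.08) and Soyo-san (-0.08). CALR lost it with Saengmaek-san (-0.07), whereas no HYOU1 call changed. At the low dose, removing the trend left 3 genes of the list called against vehicle with Soyo-san, in place of 6. With the other extracts that count stayed within 1.5 times of the reported one. Over all tested genes, fewer were called at the low dose with each of the 7 extracts, 4466 to 5301 in place of 5656 to 6807. The part of GC content in the low-dose difference of each single gene was not tested.

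By extract, the low dose had 5 genes called against vehicle with Polygalae Radix (36.1% of all genes), 6 with Aucklandiae Radix (33.3%), 5 with Menthae Herba (38.0%) and 6 with Saposhnikoviae Radix (37.6%). Saengmaek-san had 6 (38.7%), Guibi-tang 6 (40.1%) and Soyo-san 6 (34.2%). The high dose had 10 called with Polygalae Radix (66.9%), 8 with Aucklandiae Radix (73.3%), 8 with Menthae Herba (48.2%) and 9 with Guibi-tang (51.0%). Saposhnikoviae Radix had 5 (40.1%), Saengmaek-san 6 (40.5%) and Soyo-san 7 (38.8%). These 14 comparisons share the 3 vehicle libraries. With a trend in GC content removed, 3 genes were called for Saengmaek-san at the high dose and 3 for Soyo-san at the low dose, and 4 to 7 for Soyo-san at the high dose when 1 library was left out.

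HSPA5 at the high dose differed from vehicle by -2.57 with Polygalae Radix and 1.07 with Aucklandiae Radix (SE 0.05 each), close to the changes from the low dose. HERPUD1 did not keep that likeness. It was 0.33 above vehicle with Aucklandiae Radix (SE 0.11, adjusted p = 0.0071) and 0.15 above with Menthae Herba (SE 0.10, adjusted p = 0.21). Without high-dose Aucklandiae Radix replicate 2 the first value was 0.18 (adjusted p = 0.24), and without high-dose Menthae Herba replicate 1 the second was -0.17 (adjusted p = 0.019). HSP90B1 was 0.21 above vehicle with Aucklandiae Radix (SE 0.04), and at 0.00 (adjusted p = 0.98) with a trend in GC content removed.

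Okbyeongpung-san has 1 library per dose and no test. Its HSPA5 was at 1293, 1358 and 1334 CPM at the low, medium and high dose, and XBP1 at 350.1, 347.6 and 348.6 CPM. HERPUD1 was at 68.9, 69.3 and 70.2 CPM and DNAJB9 at 16, 16.6 and 17.8 CPM. The 10 genes summed to 5642, 5669 and 5652 CPM, near the 5516 to 5644 CPM of the dose means of Soyo-san, which shares its set.

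The rest of the pathway was followed in 7 other lists of known genes, described by how many of their tested genes passed. Over all tested genes, 33.0% fell and 31.1% rose with Polygalae Radix, and 35.5% fell and 33.9% rose with Aucklandiae Radix. The shares were 12.5% lower and 10.8% higher with Menthae Herba, and 17.5% lower and 16.8% higher with Guibi-tang. Among 7 sensors and processing factors, 5 fell and 2 rose with Polygalae Radix. With Aucklandiae Radix 3 rose and 2 fell, near the background. ERN1, which encodes IRE1, rose in both: from 15.7 ± 0.971 to 34 ± 0.726 CPM with Polygalae Radix (log2 change 1.10) and from 15.5 ± 0.140 to 75.6 ± 7.16 CPM with Aucklandiae Radix (2.28; SD, n = 2 each). RTCB, the ligase that joins the cut XBP1 mRNA, fell by 1.01 with Polygalae Radix. EIF2AK3, which encodes PERK, rose by 0.95 with Aucklandiae Radix and fell by 0.49 with Polygalae Radix.

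Among 20 other ER folding factors, 17 fell and 1 rose with Polygalae Radix (median -0.90). The disulfide isomerases PDIA3 and P4HB fell by 2.15 and 1.88, P4HB from 1446 ± 7.87 to 394.4 ± 25.9 CPM. With Aucklandiae Radix 6 rose and 8 fell (median -0.07), near the shares over all genes. ERO1B, an oxidase that recharges disulfide isomerases, rose by 2.74, and DNAJC3, a co-chaperone of BiP, by 1.26. With Menthae Herba 10 fell and 1 rose and with Guibi-tang 9 fell and 2 rose.

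Of 15 tested genes of ER-associated degradation (16 listed), 9 fell and 3 rose with Polygalae Radix, with OS9 at -1.74 and VCP at -1.61. With Aucklandiae Radix 10 rose and 0 fell, with EDEM1 at 1.19 and SELENOS at 1.17. All 13 translocon and signal peptidase genes fell with Polygalae Radix (median -0.69), among them SEC61A1 at -1.0 and SSR1 at -1.05. With Aucklandiae Radix 4 rose and 3 fell, not above the shares over all genes, with TRAM1 at 0.70 and SPCS1 at -0.78.

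In the PERK, ATF4 and CHOP arm, 9 genes were tested of 10 listed. All 9 rose with Aucklandiae Radix (median 1.96), with PPP1R15A, which restores translation, at 4.22 and ATF3 at 3.88. With Polygalae Radix 3 rose and 4 fell, with ATF3 at 1.86 and ASNS, asparagine synthetase, at -2.25. With Menthae Herba 8 rose and 0 fell (median 0.71), and 7 rose (median 0.43) without high-dose replicate 1. So with Menthae Herba, most genes of this list and HERPUD1 were higher than at the low dose, while the chaperones HSPA5, HSP90B1, CALR and HYOU1 were lower. HERPUD1 was not called against vehicle (0.15, adjusted p = 0.21 in edgeR). PERK activity was not measured.

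A list of heat shock chaperones outside the ER gave 12 of 12 higher with Aucklandiae Radix (median 1.76). Most are cytosolic and answer to another stress pathway, but HSPD1 and HSPE1 in it encode mitochondrial chaperones. HSPA1A and HSPA1B, near-identical copies whose reads may be split between them, rose by 5.70 and 5.02. With Polygalae Radix 10 of the 12 fell and 1 rose, with HSP90AA1 at -2.38 and HSP90AB1 at -2.01, in the range of HSP90B1. Plasma proteins, the cargo of the hepatocyte ER, fell in 12 of 12 genes with both Polygalae Radix (median -1.58) and Aucklandiae Radix (median -0.44). SERPINA1 was at -2.18 and TF at -1.91 with Polygalae Radix, and APOB at -2.05 and HP at -1.47 with Aucklandiae Radix. With Menthae Herba 10 of the 12 fell and with Guibi-tang 11. These lists are read against the background shares given for each extract above, and were not tested as sets.

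**Figure D5:**
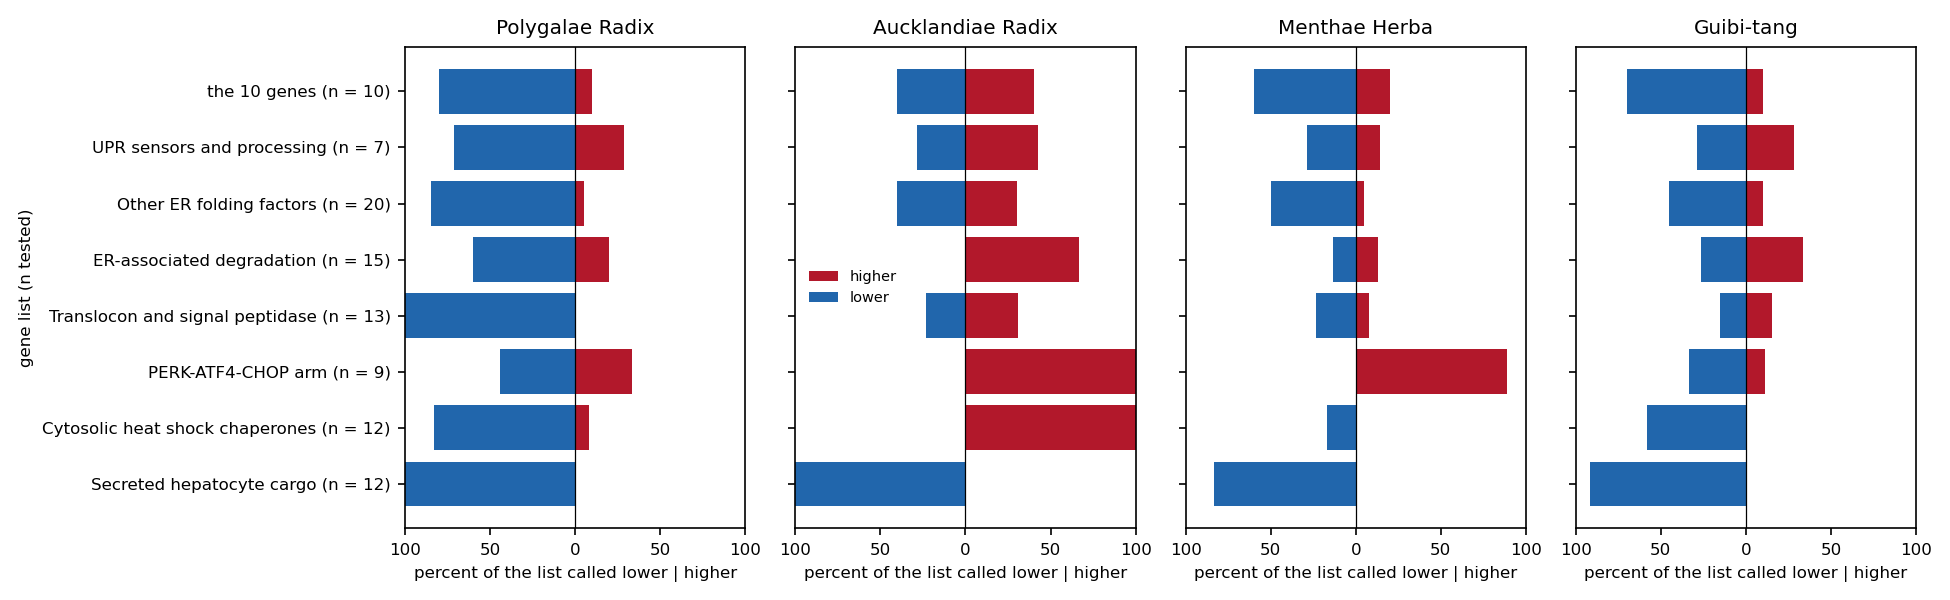
Percent of the tested genes of each list called higher (red, to the right) or lower (blue, to the left) at the high against the low dose in 4 extracts. In Aucklandiae Radix all 9 genes of the PERK, ATF4 and CHOP list are higher. So are all 12 of the list marked cytosolic, which includes the mitochondrial HSPD1 and HSPE1. In Polygalae Radix all 13 translocon genes are lower.

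The genes most like the 10 were sought by the Pearson correlation of log2 CPM with the mean standardised profile of the 10 over 60 libraries. P4HB (0.965), PDIA3 (0.964) and RPN2 (0.957) led, followed by NANS (0.948), CALU, HNRNPM and OS9 (0.943 each), RPN1 and SPARC (0.942 each) and VTN (0.941). Of these P4HB, PDIA3, CALU and OS9 stood in the lists above, and RPN1 and RPN2 encode subunits of the oligosaccharyltransferase. The libraries share treatment and set, and the 4 high-dose libraries of Polygalae Radix and Aucklandiae Radix carry much of the likeness: without them the values were 0.674 to 0.865, and by ranks (Spearman) over the 60 they were 0.432 to 0.740. Within the list, HSP90B1 followed the mean profile most closely (0.961), DNAJB9 was at 0.269 and XBP1 at -0.586. Each of the 10 genes is part of that profile, so these values cannot be set beside those of the other genes.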

How the data were processed

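RNA was sequenced from 60 HepG2 libraries, paired-end, with a kit that keeps the strand, per the labels' protocols. The deposited table holds the authors' expected counts per Ensembl gene; FastQC 0.11.9, Trim Galore 0.6.5, STAR 2.7.3a, RSEM 1.3.3 and a GRCh38 build are named, per the submitters' processing notes. Which annotation release and which strand setting were used is not stated there. Of the deposited counts, 9.97% were not whole, and all were rounded.

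In R 4.3.3, edgeR 4.0.16 (TMM scaling, filterByExpr with a minimum count of 10, quasi-likelihood test, Benjamini-Hochberg adjustment per contrast, threshold 0.05) was fitted to 57 libraries in 22 groups, with 35 residual degrees of freedom and a biological coefficient of variation of 4.65%. The single libraries of Okbyeongpung-san were not fitted. CPM, counts scaled to a common library total, use TMM scaling over all 60 libraries. Depth was 17518496 to 38905920 counts per library. No pair of libraries of one group agreed within sampling noise (chi-square per gene 1.82 to 17.37 over 48 pairs, where 1 is sampling noise alone).

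The alternatives were RLE scaling, DESeq2 1.42.0, no filter, a mean CPM of at least 1, a replicate block, removal of a GC trend (GC known for 99.29% of tested genes), fitting only the groups compared, and leaving out each library. The members and lists were chosen with earlier results of these data known. Named genes were the 10 members, up to 2 genes per other list with the largest called change in Polygalae Radix and in Aucklandiae Radix, and the 10 genes most correlated with the members. On simulated counts for the Polygalae Radix comparison (16223 genes), 65.7%, 100% and 100% of genes at a CPM of 10 or more changed by 1.25-, 1.5- and 2-fold were recovered. For Menthae Herba (16206 genes) it was 93.2%, 100% and 100%. The simulation gave all genes the same dispersion and changed few of them. In the data the high-dose Polygalae Radix libraries differed by a chi-square per gene of 17.19, against a median of 3.77 over all pairs. The medium-dose libraries of that extract differed by 17.37. Vehicle replicate 1 differed from replicates 2 and 3 by 16.38 and 15.3, and those from each other by 2.78. High-dose Guibi-tang replicate 2 differed from replicates 1 and 3 by 14.97 and 17.26. Low-dose Saengmaek-san replicates 2 and 3 differed by 16.09. Recovery in the data may therefore be lower. Promoter sequences are from RefSeq (GRCh38.p14).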

Additional observations from a re-analysis of the deposited data

Results flagged for a closer look

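These values are differences, on the log2 scale, between the high-against-low changes of 2 extracts of one sample set, each past an adjusted p of 0.05 in edgeR's test of the difference itself. For Aucklandiae Radix minus Polygalae Radix, the difference was 3.58 for HSPA5, 2.33 for HSP90B1, 2.03 for CALR, 1.37 for PDIA4, 1.34 for PDIA6 and 1.67 for HYOU1. It was 2.32 for DNAJB9, 1.73 for HERPUD1 and -3.07 for XBP1. For Menthae Herba minus Saposhnikoviae Radix, it was -0.44 for HSPA5, -0.53 for HSP90B1, -0.30 for CALR, -0.44 for PDIA4, -0.31 for PDIA6 and -0.53 for HYOU1, and 0.59 for DNAJB9 and 0.70 for HERPUD1. For Guibi-tang minus Saengmaek-san, it was -0.70 for HSPA5, -0.62 for HSP90B1, -0.64 for CALR, -0.42 for PDIA4, -0.30 for PDIA6 and -0.40 for HYOU1. The doses of Polygalae Radix and Aucklandiae Radix differ slightly, so that pair is not at matched doses.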

How the results depend on the processing

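Counts of the 10 genes called stayed within 1.5 times of the reported count in all but these cases. Fitting only the groups compared gave 0 for Polygalae Radix at the medium dose (reported 6) and 2 for Aucklandiae Radix at the medium dose (reported 1). No filter gave 0 for Aucklandiae Radix and 1 for Guibi-tang (reported 2), both at the medium dose. Removing the GC trend gave 2 for Aucklandiae Radix at the medium dose, 3 for Saengmaek-san at the high dose against vehicle and 3 for Soyo-san at the low dose against vehicle (reported 6 each). Leaving out 1 library gave 0 to 0 for Aucklandiae Radix and 0 to 2 for Guibi-tang at the medium dose, and 4 to 7 for Soyo-san at the high dose against vehicle. The cause was not tested.

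With the GC trend removed, 8 of 170 single values that were called in either fit changed sign, all at the high dose against vehicle, as did 11 that were called in neither. A further 7 lost their call without a change of sign, among them PDIA4 and CALR as given above, and 2 gained one. HSP90B1 became 0.00 with Aucklandiae Radix, -0.08 with Saposhnikoviae Radix, -0.04 with Saengmaek-san and -0.05 with Soyo-san, and SDF2L1 became 0.31 with Aucklandiae Radix, 0.24 with Saposhnikoviae Radix, 0.02 with Guibi-tang and 0.27 with Soyo-san. HERPUD1 with Menthae Herba against vehicle became -0.17 without high-dose replicate 1 (reported 0.15), and ranged from -0.17 to 0.30 when 1 library was left out. RLE scaling, DESeq2 and the mean filter each added 1 call and lost 0, and 1 uncalled value changed sign under each. Leaving out 1 library, over 1070 values, lost 34 calls, added 8, and changed the sign of 1 called and 46 uncalled values.

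Replicate numbers showed little sign of pairing the libraries: same-numbered libraries had a median correlation of deviations between -0.00471 and 0.00977. Single pairs reached 0.247 in the set of Polygalae Radix and Aucklandiae Radix, where 2 of 30 exceeded 0.1. Groups of that set have 2 libraries, whose deviations mirror each other. Each value there appears 2 times, so the 2 pairs above 0.1 come from the same 2 groups. In the set of Menthae Herba and Saposhnikoviae Radix 1 of 45 did, at 0.114. With a replicate block, 9 genes were called for Polygalae Radix and 8 for Aucklandiae Radix, high against low, as without it. Over the 170 values it added 3 calls and lost 1, and 0 changed sign.

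Over all genes, counts moved by over 1.5 times mainly at the medium dose. Fitting only the groups compared called 20 genes for Polygalae Radix (reported 1429), 1193 for Aucklandiae Radix (reported 739) and 231 for Menthae Herba (reported 20), and 389 for Saposhnikoviae Radix, high against low (reported 141).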
